A study of Mus musculus with 9 samples.

Results

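The genes described here encode the machinery that makes ribosomes in the nucleolus. The set holds 47 mouse genes, chosen by name and role with earlier results of these data known. They are the growth regulator Myc, 4 subunits or cofactors of RNA polymerase I and 8 protein genes of small nucleolar ribonucleoprotein particles (snoRNPs). The others are 6 abundant nucleolar proteins, 18 factors that build the small ribosomal subunit and 10 that build the large one. The count table lists 46517 genes, of which 14059 passed a filter on low counts and were tested, and all 47 members were among them. The smallest member count in any library was 163 estimated counts, for Polr1e.

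The libraries came from wild-type C57BL/6 primary monocytes obtained in vitro, and the series title names cultures on OP9-DLL1, a stromal cell line that displays the Notch ligand DLL1. There were 3 libraries, numbered 0, 1 and 2, of each of 3 subsets: patrolling monocytes (pMo), intermediate monocytes (intMo) and conventional monocytes (cMo). The labels give no agent, age, dose or time that separates the subsets, and they leave unstated whether each library is its own culture or animal. A p-value given here thus reflects only how far these libraries scatter, which may be technical. The comparisons of pMo and of intMo with cMo share the same cMo libraries, so their values are set side by side and are not independent.

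Ribosome production begins with RNA polymerase I, which transcribes the ribosomal RNA (rRNA) precursor in the nucleolus. Box C/D snoRNPs, guided by their small nucleolar RNAs, methylate rRNA riboses, and box H/ACA snoRNPs convert uridines to pseudouridines. The small subunit processome and a separate series of large subunit factors then fold, cut and export the pre-ribosomes. The transcription factor MYC is a known activator of many of these genes, and cells that divide or grow quickly are known to make more ribosomes than resting ones.

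Library totals lay between 18455116 and 29985684 estimated counts. The 9 patrolling marker genes summed to 12270, 10190 and 9707 CPM (counts scaled to library size) in pMo libraries 0, 1 and 2, to 4505, 3669 and 4392 CPM in intMo, and to 1176, 1416 and 1131 CPM in cMo. The order of the subsets by this sum followed the labels. Of the 9 genes, 1, Spn, was lower in intMo than in cMo (log2 -1.48, adjusted p = 0.00587, edgeR). The 8 conventional marker genes summed to 634.2, 1136 and 1164 CPM in pMo and 1119, 2550 and 2193 CPM in intMo. In cMo they summed to 5830, 10040 and 10570 CPM. The 5 general monocyte marker genes summed to 9662, 16680 and 20640 CPM in cMo, and to 9480 to 11840 CPM in the other subsets. Both sums were lowest among the cMo libraries in library 0. Some libraries stood apart within their subset. In cMo library 0 the 14 granulocyte and progenitor genes summed to 8956 CPM, against 1626 and 1714 CPM in the other 2 cMo libraries. Of the 47 members, 41 had their highest level of all 9 libraries in cMo library 0 (87.2%), a place that 24.3% of all tested genes shared. The exceptions were Heatr1, Npm1, Pes1, Noc3l, Ltv1 and Utp14a. In pMo and intMo, library 0 also differed from libraries 1 and 2: immediate early genes summed to 3064, 1227 and 1122 CPM in pMo libraries 0, 1 and 2 and to 3626, 1289 and 1397 CPM in intMo. For this reason values without cMo library 0 are given beside many of the results below.

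Summed over all 47 members, the level was 2755, 2786 and 2973 CPM in pMo, 2764, 3281 and 2895 CPM in intMo, and 4970, 3182 and 3760 CPM in cMo. The pMo libraries were all below the cMo libraries, whereas intMo library 1 lay above cMo library 1. In bulk RNA, fewer cells of a type and less RNA per cell cannot be told apart.

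**Figure D1:**
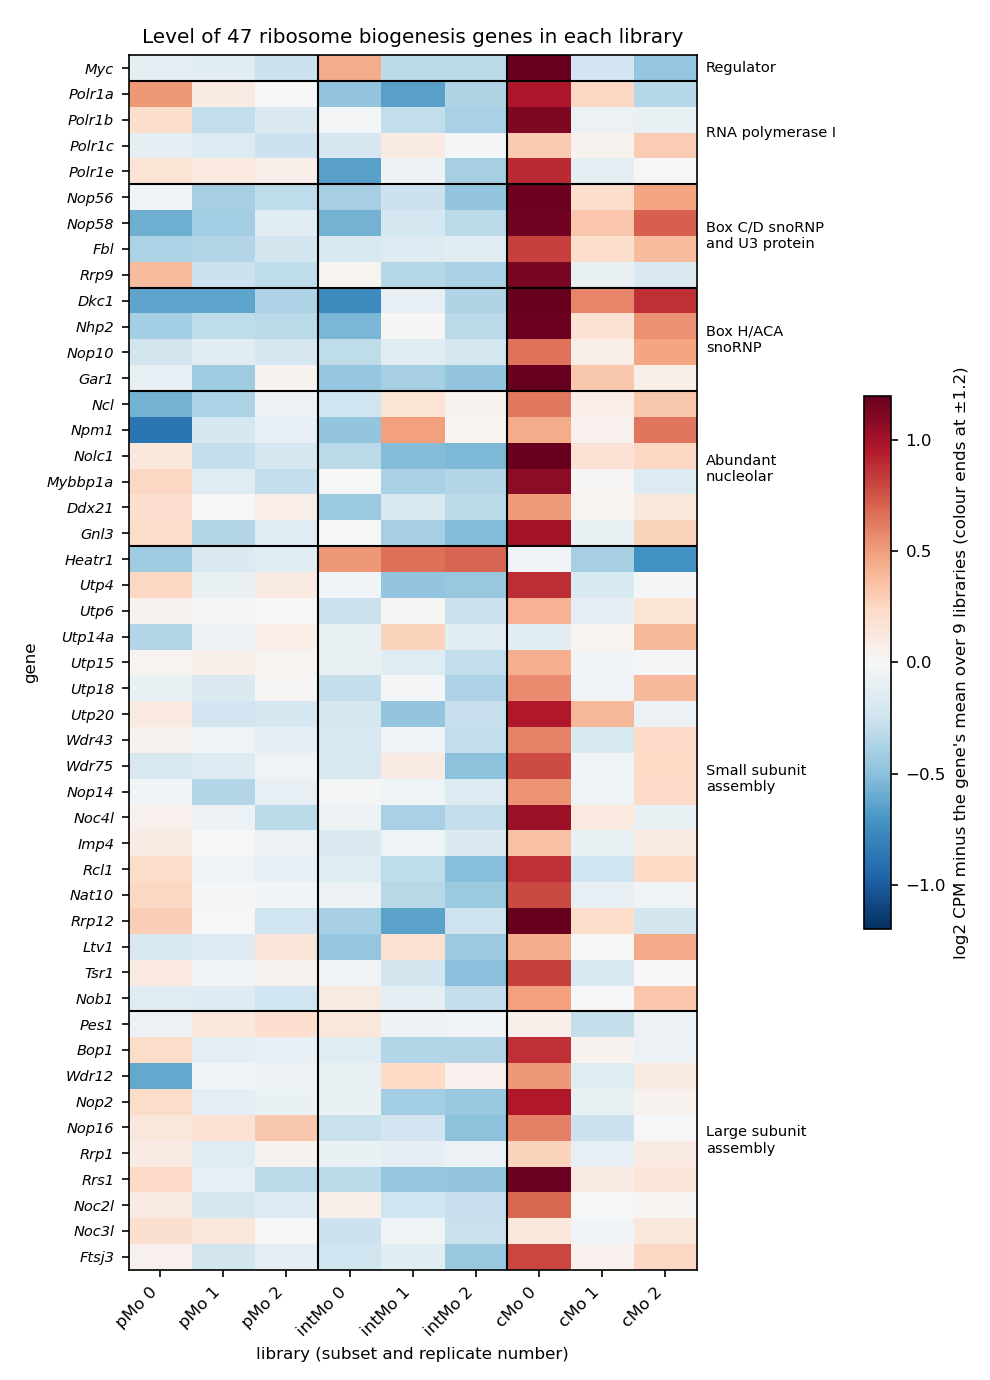
Heat map with 1 row for each of the 47 members, grouped by role, and 1 column for each library, ordered pMo, intMo and cMo. Colour shows log2 CPM minus the gene's mean over the 9 libraries and ends at ±1.2, and the column of cMo library 0 is the highest for 41 of the 47 genes.

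In the comparison of pMo with cMo, 8 of the 47 members were lower and 0 were higher at an adjusted p under 0.05 (edgeR quasi-likelihood test, Benjamini-Hochberg adjustment over all 14059 genes). At an unadjusted p under 0.05, 16 were lower and 0 higher, and DESeq2 called 12 lower and 0 higher, where it called 18.6% of all genes lower and 19.0% higher. The 8 genes are 17.0% of the members, next to 15.9% of all tested genes that were lower and 17.2% that were higher, so the share as a whole was near the background. In the comparison of intMo with cMo, 12 members were lower (25.5%, with 10.4% of all tested genes lower) and 1, Heatr1, was higher (14% of all tested genes were higher). At an unadjusted p under 0.05, 27 were lower and 1 higher there. DESeq2 called 16 lower and 1 higher, where it called 14.4% of all genes lower and 16.2% higher. No share of all tested genes was taken for the unadjusted counts. The log2 change was negative for 43 of 47 members in pMo against cMo, with a median of -0.40 over the members and 0.03 over all tested genes, and for 45 of 47 in intMo against cMo, with medians of -0.55 and -0.01. In pMo 13 members had all 3 libraries below all cMo libraries (23.5% of all tested genes did) and 0 had them above (26.0%), and in intMo 17 were below (20.1%) and 1 was above (21.2%). The signs and medians moved with cMo library 0. Without it, 28 of 47 changes were negative in pMo, with a median of -0.10, and 43 of 47 in intMo, with a median of -0.27, where the medians over all tested genes were 0.04 and 0.01. In pMo 15 members turned positive and in intMo 2. By role, most calls were of snoRNP genes: 6 of the 8 snoRNP genes were lower in pMo and 7 of 8 in intMo, and 6 of them (Dkc1, Fbl, Nhp2, Nop10, Nop56 and Nop58) were lower in both. Without cMo library 0, those 6 were the members lower in pMo, 12.8% of the members with a background of 12.8%, and 0 were higher (background 14.7%). In intMo 8 members were lower without it, 17.0% with a background of 6.63%, and 1 was higher (background 11.7%). With libraries 1 and 2 of each subset only, 8 members were lower and 2 higher in pMo (backgrounds 18.0% and 19.7%), and 11 were lower and 1 higher in intMo (backgrounds 11.9% and 15.8%).

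**Figure D2:**
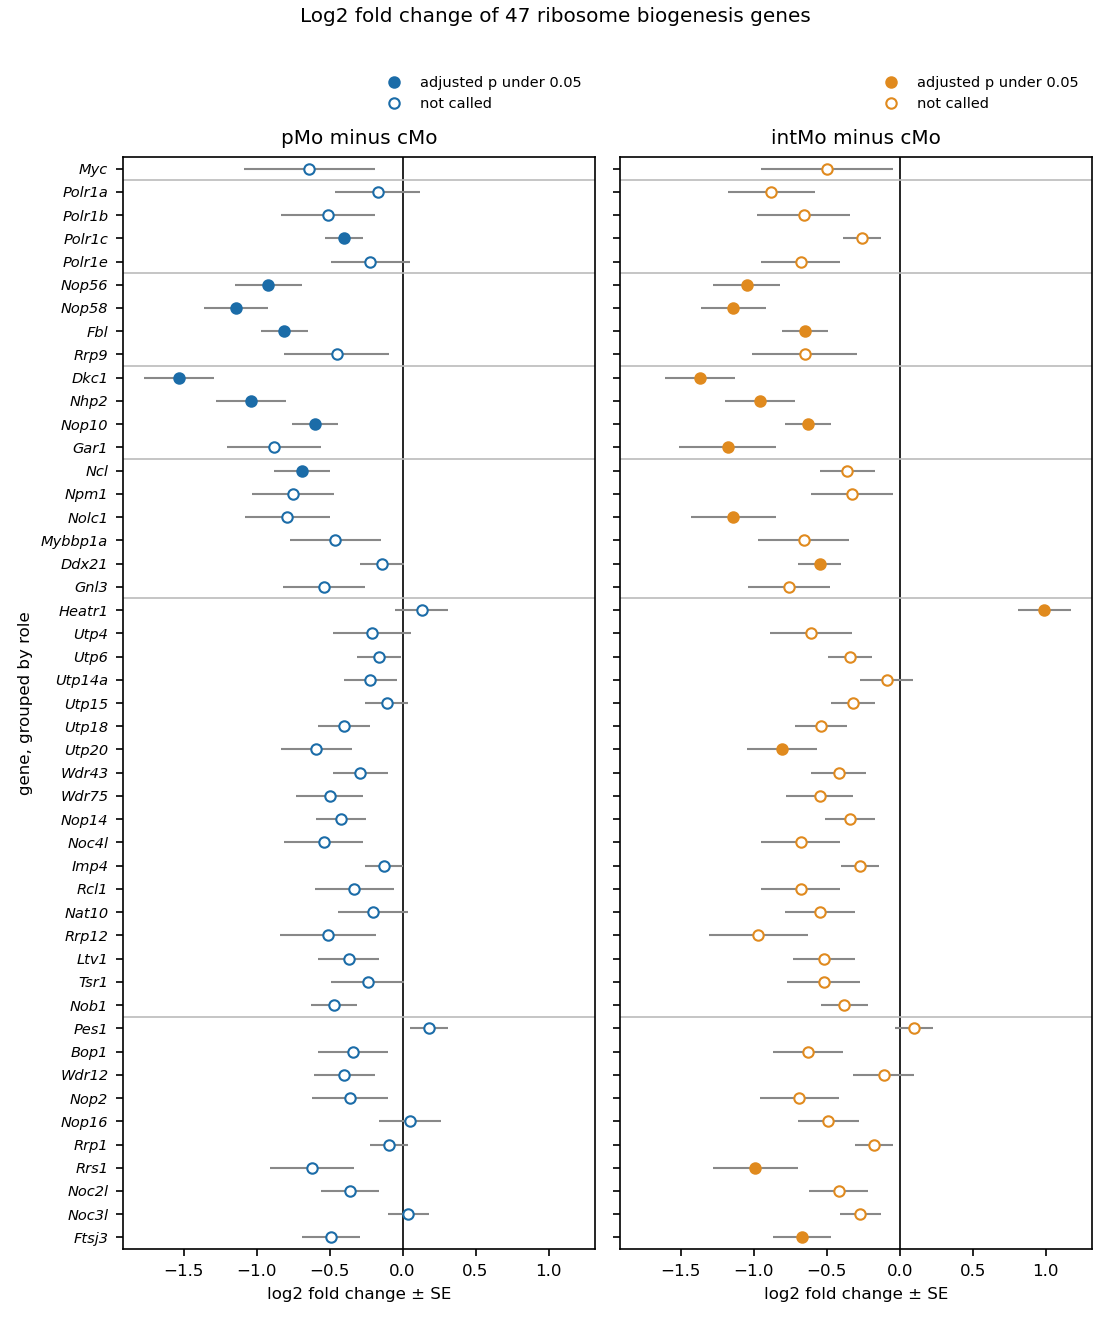
Log2 fold change (x axis, points with bars of ± SE) of each of the 47 members (y axis, grouped by role) in pMo against cMo, left, and intMo against cMo, right, with filled points for an adjusted p under 0.05 and open points for genes not called. Most points lie left of 0, furthest for Dkc1, and Heatr1 lies right of 0 in intMo against cMo.

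The 7 core proteins of the modifying snoRNPs summed to 276.2, 264.9 and 287.6 CPM in pMo, 258.5, 304.3 and 275.9 CPM in intMo, and 720.8, 403.8 and 487.4 CPM in cMo. Every pMo and intMo library was below every cMo library, and the sums of pMo and intMo overlapped.

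Dkc1 encodes dyskerin, the pseudouridine synthase of box H/ACA snoRNPs, which is also a part of telomerase (ENSMUSG00000031403.13, GRCm38 chrX:75095854-75109777). It had 16.6, 16.6 and 20.0 CPM in pMo, 15.2, 24.1 and 20.1 CPM in intMo, and 67.9, 38.6 and 47.3 CPM in cMo. The cMo libraries did not overlap with either of the other subsets. The log2 change was -1.53 ± 0.24 (SE) in pMo against cMo (adjusted p = 0.00161, edgeR) and -1.37 ± 0.24 in intMo against cMo (adjusted p = 0.00396, edgeR), the largest fall among the members in both. Without cMo library 0 the changes were -1.28 in pMo (adjusted p = 0.00306, edgeR) and -1.12 in intMo (adjusted p = 0.00786, edgeR).

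The other box H/ACA proteins bind the guide RNA or dyskerin. Nhp2 (chr11:51619735-51623714) had 39.7, 42.7 and 42.0 CPM in pMo, 36.1, 53.1 and 42.1 CPM in intMo, and 119.3, 59.5 and 77.2 CPM in cMo. It was lower in both, by a log2 change of -1.04 ± 0.24 in pMo (adjusted p = 0.0108, edgeR) and -0.96 ± 0.24 in intMo (adjusted p = 0.0207, edgeR). The intMo call was lost without intMo library 0 or 2, with an adjusted p of at most 0.0671 in edgeR. Nop10 (chr2:112261926-112263269) had 25.8, 27.5 and 26.1 CPM in pMo, 24.3, 27.1 and 26.1 CPM in intMo, and 47.1, 31.5 and 41.6 CPM in cMo. It fell less, with log2 changes of -0.60 ± 0.16 in pMo (adjusted p = 0.0171, edgeR) and -0.63 ± 0.16 in intMo (adjusted p = 0.0189, edgeR). Its groups did not overlap either, but its calls were lost when pMo library 0 or 2, or intMo library 0 or 2 or cMo library 2, was left out, with an adjusted p of at most 0.0585 in edgeR. Gar1 (chr3:129824912-129831396) had 12.2, 9.7 and 13.4 CPM in pMo, 9.4, 9.9 and 9.4 CPM in intMo, and 35.2, 16.3 and 13.7 CPM in cMo. Its cMo libraries spread most of the 4 in proportion to their mean, with library 0 more than double either of the others. All of them lay above the pMo and intMo libraries, narrowly so for cMo library 2 over pMo library 2. The change in pMo, -0.88 ± 0.32, was not called (adjusted p = 0.0636, edgeR) and was -0.35 without cMo library 0 (adjusted p = 0.182, edgeR). That in intMo, -1.18 ± 0.33, was called (adjusted p = 0.0288, edgeR). The intMo value was -0.65 without cMo library 0 (adjusted p = 0.0391, edgeR), and the call was lost without any 1 of the intMo libraries.

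Among the box C/D proteins, Nop58 and Nop56 form the scaffold of the particle and Fbl encodes fibrillarin, its methyltransferase. Nop58 (ENSMUSG00000026020.8, chr1:59684971-59719044) had 28.7, 32.5 and 39.4 CPM in pMo, 29.1, 37.2 and 34.4 CPM in intMo, and 96.7, 54.1 and 70.6 CPM in cMo. The change was -1.14 ± 0.22 in pMo (adjusted p = 0.00441, edgeR) and -1.14 ± 0.22 in intMo (adjusted p = 0.00657, edgeR). Neither call was lost on leaving out any library. Nop56 (chr2:130274430-130279313) had 86.4, 67.7 and 72.2 CPM in pMo, 67.7, 74.7 and 64.4 CPM in intMo, and 201.2, 103.2 and 124.0 CPM in cMo. It changed by log2 -0.92 ± 0.23 in pMo (adjusted p = 0.0141, edgeR) and -1.05 ± 0.23 in intMo (adjusted p = 0.0112, edgeR). Without cMo library 0 the pMo value was -0.59 (adjusted p = 0.0193, edgeR), and the pMo call was lost without pMo library 1 or 2, with an adjusted p of at most 0.0585 in edgeR. Fbl (chr7:28169710-28179269) had 66.8, 68.1 and 74.5 CPM in pMo, 76.6, 78.2 and 79.4 CPM in intMo, and 153.3, 100.6 and 113.1 CPM in cMo. The replicates of pMo and intMo lay close together, and every cMo library was higher. The change was -0.81 ± 0.16 in pMo (adjusted p = 0.00446, edgeR) and -0.65 ± 0.16 in intMo (adjusted p = 0.017, edgeR), and no call was lost on leaving out a library.

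Rrp9 encodes a protein that binds the U3 snoRNA, which guides rRNA cutting. It had 19.4, 12.5 and 12.1 CPM in pMo, 15.2, 11.8 and 11.4 CPM in intMo, and 33.0, 14 and 13.2 CPM in cMo. In all 3 subsets library 0 was the highest and the ranges of the subsets overlapped. Its changes of -0.45 ± 0.36 in pMo (adjusted p = 0.361, edgeR) and -0.65 ± 0.36 in intMo (adjusted p = 0.219, edgeR) were not called, and without cMo library 0 the values were 0.10 in pMo and -0.09 in intMo.

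**Figure D3:**
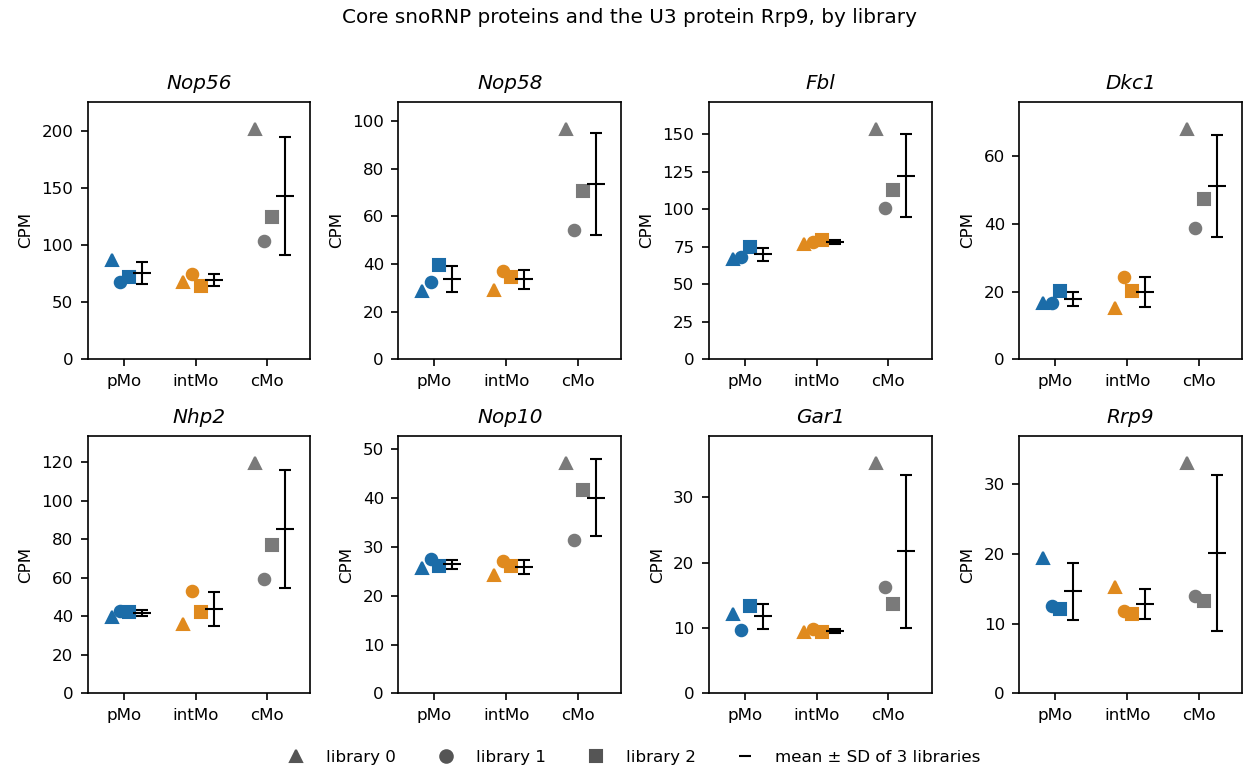
CPM (y axis, from 0) of the 8 snoRNP protein genes in pMo, intMo and cMo, with a symbol for each library and a black bar for the mean ± SD of 3 libraries. The cMo points of Dkc1, Nop58, Nop56, Fbl, Nhp2, Nop10 and, narrowly, Gar1 lie above all pMo and intMo points. Those of Rrp9 overlap with them.

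The promoter windows of members that moved and of members that did not are shown, since MYC binds the E-box CACGTG and many promoters of housekeeping genes hold the ETS motif CCGGAAGT. Each window runs from 250 bases before to 50 after the gene start, from RefSeq on GRCm38.p6, printed along the gene strand in lower case with motif matches on either strand in capitals. Dkc1 (chrX:75095604-75095903, plus strand) and Nop58 (chr1:59684756-59685055, plus strand) fell in both subsets and hold neither motif. Nhp2 (chr11:51619523-51619822, plus strand), which also fell, and Heatr1 (chr13:12395125-12395424, plus strand), which was higher in intMo, each hold the ETS motif. Utp20 (chr10:88826765-88827064, minus strand) was lower in intMo and Pes1 (chr11:3963725-3964024, plus strand) was not called, and each holds an E-box, whose first base lies at 38 and 3 bases from the start.
Dkc1: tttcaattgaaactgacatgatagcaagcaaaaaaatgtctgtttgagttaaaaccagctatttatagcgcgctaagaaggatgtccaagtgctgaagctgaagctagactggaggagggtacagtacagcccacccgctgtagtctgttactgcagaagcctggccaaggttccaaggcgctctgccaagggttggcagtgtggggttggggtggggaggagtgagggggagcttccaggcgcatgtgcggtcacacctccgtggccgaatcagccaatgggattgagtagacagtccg
Nop58: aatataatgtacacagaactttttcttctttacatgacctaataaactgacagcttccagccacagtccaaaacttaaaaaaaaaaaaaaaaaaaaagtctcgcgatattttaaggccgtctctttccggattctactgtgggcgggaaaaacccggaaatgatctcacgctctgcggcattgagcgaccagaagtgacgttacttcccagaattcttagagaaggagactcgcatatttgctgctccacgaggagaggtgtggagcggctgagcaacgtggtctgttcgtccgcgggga
Nhp2: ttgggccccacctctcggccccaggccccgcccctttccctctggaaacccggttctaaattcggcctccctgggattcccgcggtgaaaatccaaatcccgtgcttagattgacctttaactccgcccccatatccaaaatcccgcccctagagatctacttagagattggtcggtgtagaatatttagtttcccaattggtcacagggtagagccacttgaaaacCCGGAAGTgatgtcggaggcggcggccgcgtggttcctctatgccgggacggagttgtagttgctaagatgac
Heatr1: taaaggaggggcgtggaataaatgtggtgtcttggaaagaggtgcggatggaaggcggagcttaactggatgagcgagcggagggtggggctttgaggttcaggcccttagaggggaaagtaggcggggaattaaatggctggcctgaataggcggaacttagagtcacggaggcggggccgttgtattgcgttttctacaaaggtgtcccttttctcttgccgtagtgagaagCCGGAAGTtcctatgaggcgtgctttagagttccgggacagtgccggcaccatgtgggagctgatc
Utp20: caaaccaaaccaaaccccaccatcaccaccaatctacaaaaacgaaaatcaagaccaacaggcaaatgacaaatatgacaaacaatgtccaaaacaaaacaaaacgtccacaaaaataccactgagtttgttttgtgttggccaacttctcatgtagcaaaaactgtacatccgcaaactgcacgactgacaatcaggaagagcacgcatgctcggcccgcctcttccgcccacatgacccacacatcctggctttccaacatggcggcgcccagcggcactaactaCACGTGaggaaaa
Pes1: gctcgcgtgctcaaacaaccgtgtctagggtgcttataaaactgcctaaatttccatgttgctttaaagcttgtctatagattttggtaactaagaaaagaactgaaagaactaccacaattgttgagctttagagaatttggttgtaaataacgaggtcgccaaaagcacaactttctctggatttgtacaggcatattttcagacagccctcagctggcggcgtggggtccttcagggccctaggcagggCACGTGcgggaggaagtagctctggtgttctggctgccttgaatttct
Windows were found for 40 of the 47 members, all but Utp6, Bop1, Npm1, Fbl, Rrp12, Myc and Rrs1. The E-box was in 10 of the 40 (25%), against 11.4% of all tested genes with a window. Of the members lower in either comparison with cMo, 1 of 12 held it (8.33%), and of the members not lower, 9 of 28 (32.1%). The ETS motif was in 9 of 40 (22.5%), against 8.75% of tested genes, and in 2 of the 6 core snoRNP genes with a window, Gar1 and Nhp2. The consensus motif of the factor NRF1, searched by exact match, was in 0 of 40, against 2.26% of tested genes. No match of one motif overlapped a match of another. These shares describe letters in the windows and were not tested.

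Some of these genes also carry small nucleolar RNAs in their introns, so that 1 transcript yields a snoRNP protein and a guide RNA. In the annotation, 7 of the 47 members (14.9%) hold a snoRNA gene within their span, against 1.59% of all tested genes. They are Nop56 with 5, Nop58 with 4, Ncl, Gnl3 and Wdr43 with 3 each, Tsr1 with 2 and Dkc1 with 1. Nop56, Nop58 and Dkc1 were lower in both comparisons with cMo, Ncl in pMo, and the other 3 were not called.

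Of the 6 abundant nucleolar proteins, Ncl was lower in pMo, and Nolc1 and Ddx21 were lower in intMo (edgeR). At an unadjusted p under 0.05, 3 were lower in each and 0 higher. DESeq2 called 3 lower in each (backgrounds 18.6% in pMo and 14.4% in intMo) and 0 higher. It added Npm1 (adjusted p = 0.0301, DESeq2) and Nolc1 (adjusted p = 0.0299, DESeq2) in pMo, and Gnl3 (adjusted p = 0.0481, DESeq2) in intMo. Ncl encodes nucleolin, which binds rRNA precursors (ENSMUSG00000026234.11, chr1:86344719-86359400). It had 285.8, 324.1 and 402.6 CPM in pMo, 359.0, 474.3 and 435.9 CPM in intMo, and 656.5, 445.7 and 530.1 CPM in cMo. All pMo libraries were below all cMo libraries, whereas intMo overlapped with cMo. The change was -0.69 ± 0.19 in pMo (adjusted p = 0.0215, edgeR), a call lost without pMo library 0 or 1 or cMo library 0, where the adjusted p reached at most 0.0783 in edgeR. In intMo it was -0.36 ± 0.19 (adjusted p = 0.195, edgeR), and -0.21 without cMo library 0.

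Npm1, the histone and ribosomal protein chaperone nucleophosmin (chr11:33152287-33163206), had 307.3, 487.3 and 526.6 CPM in pMo, 405.8, 793.9 and 573.3 CPM in intMo, and 767.9, 583.3 and 876.9 CPM in cMo. The pMo libraries were all below the cMo libraries, yet the change of -0.75 ± 0.28 was not called (adjusted p = 0.0686, edgeR), nor was that in intMo, -0.33 ± 0.28 (adjusted p = 0.428, edgeR). Nolc1, a nucleolar chaperone of snoRNPs, had 58.8, 44.1 and 46.9 CPM in pMo, 43.2, 37.5 and 37.0 CPM in intMo, and 135.0, 60.9 and 64.0 CPM in cMo. All cMo libraries were the higher ones, by a narrow margin apart from library 0. Its change in intMo was -1.14 ± 0.29 (adjusted p = 0.0205, edgeR), and -0.67 without cMo library 0 (adjusted p = 0.0179, edgeR). That call was lost without intMo library 1 or 2. In pMo the change, -0.79 ± 0.29, was not called (adjusted p = 0.0606, edgeR) and was -0.33 without cMo library 0 (adjusted p = 0.148, edgeR).

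Ddx21, an RNA helicase of the nucleolus, had 140.2, 123.0 and 128.9 CPM in pMo, 89.6, 107.8 and 97.7 CPM in intMo, and 173.7, 124.9 and 134.2 CPM in cMo. The intMo libraries were the lowest, and pMo overlapped with cMo. The intMo change was -0.55 ± 0.15 (adjusted p = 0.026, edgeR), a call lost without intMo library 0 or 2 or cMo library 0, where it was -0.40. The pMo change was -0.14 ± 0.15 (adjusted p = 0.49, edgeR), and 0.01 without cMo library 0. Gnl3, the GTPase nucleostemin, had 28.0, 18.8 and 21.8 CPM in pMo, 24, 18.2 and 16.8 CPM in intMo, and 48.1, 22.7 and 29.0 CPM in cMo. Its subsets overlapped and it was not called, as was Mybbp1a, a nucleolar MYB-binding protein.

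Myc had 23.8, 23.5 and 21.5 CPM in pMo, 35, 20.6 and 20.7 CPM in intMo, and 66.9, 22 and 18.7 CPM in cMo. Apart from cMo library 0 and intMo library 0, the libraries lay between 18.7 and 23.8 CPM. Its changes of -0.64 ± 0.45 in pMo (adjusted p = 0.302, edgeR) and -0.50 ± 0.45 in intMo (adjusted p = 0.456, edgeR) were not called. They turned positive without cMo library 0, 0.17 in pMo and 0.32 in intMo.

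Of the 4 RNA polymerase I genes, 1 was called, in pMo. Polr1a, the largest subunit, had 54.5, 40.6 and 38.0 CPM in pMo, 27.4, 24.2 and 29.6 CPM in intMo, and 74.6, 45.1 and 30.0 CPM in cMo. The intMo libraries were the lowest, and pMo and cMo overlapped. The changes of -0.17 ± 0.29 in pMo (adjusted p = 0.69, edgeR) and -0.88 ± 0.30 in intMo (adjusted p = 0.0581, edgeR) were not called. They were 0.24 in pMo and -0.47 in intMo without cMo library 0 (adjusted p = 0.458 and 0.176, edgeR). Polr1b, the second largest subunit, had 19.7, 13.8 and 15.1 CPM in pMo, 16.8, 13.8 and 12.9 CPM in intMo, and 36.9, 16.2 and 15.9 CPM in cMo. Its subsets overlapped apart from cMo library 0, and it was not called. Polr1c, a subunit shared with RNA polymerase III, had 33.1, 32.0 and 30.0 CPM in pMo, 31.1, 38.3 and 35.6 CPM in intMo, and 44.6, 36.9 and 44.2 CPM in cMo. Its change in pMo was -0.40 ± 0.13 (adjusted p = 0.0436, edgeR). The call was lost without any of 7 of the 9 libraries, with an adjusted p of at most 0.145 in edgeR. Polr1e was not called. In intMo, 0 of the 4 were called in edgeR, 2 had an unadjusted p under 0.05, and DESeq2 called 1.

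Of the 18 small subunit factors, 0 were lower or higher in pMo than in cMo, although 4 had an unadjusted p under 0.05, all with negative changes, and DESeq2 called 1. In intMo 1 was lower, Utp20, and 1 was higher, Heatr1, in edgeR, and 10, Utp20 among them, had an unadjusted p under 0.05 with negative changes. Heatr1, the counterpart of yeast Utp10, acts in the processome and in transcription of the rRNA precursor (ENSMUSG00000050244.8, chr13:12395027-12440289). It had 97.2, 116.1 and 120.0 CPM in pMo, 187.0, 206.5 and 212.6 CPM in intMo, and 127.3, 99.4 and 78.8 CPM in cMo. The 3 intMo libraries were above all 6 others, and pMo and cMo overlapped. The change was 0.99 ± 0.18 in intMo against cMo (adjusted p = 0.00473, edgeR), the only call of a rise among the members there. It lay between 0.83 and 1.18 when any 1 library was left out, with an adjusted p of at most 0.0196 in edgeR. In pMo against cMo it was 0.13 ± 0.18 (adjusted p = 0.618, edgeR), 0.31 without cMo library 0 and -0.03 without cMo library 2.

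Utp20, a large scaffold of the processome, had 37.6, 29.8 and 30.0 CPM in pMo, 30.0, 25.1 and 28.7 CPM in intMo, and 67.8, 45.8 and 33.1 CPM in cMo. The intMo libraries were all below the cMo libraries, and pMo overlapped with cMo. Its change in intMo was -0.81 ± 0.24 (adjusted p = 0.0375, edgeR). Without cMo library 0 the change was -0.50 (adjusted p = 0.0937, edgeR), and the call was lost without any 1 of 7 of the 9 libraries. In pMo it was -0.59 ± 0.24 (adjusted p = 0.0871, edgeR), and -0.28 without cMo library 0. Nob1, the endonuclease that makes the end of the small subunit rRNA, averaged 23.4 ± 0.814 CPM in pMo, 24.9 ± 3.43 CPM in intMo and 32.4 ± 5.39 CPM in cMo (SD, n = 3 each). The pMo libraries were all below cMo, and the change of -0.47 ± 0.16 had an adjusted p of 0.0515 in edgeR. The other 15 small subunit members, Utp4, Utp6, Utp14a, Utp15, Utp18, Wdr43, Wdr75, Nop14, Noc4l, Imp4, Rcl1, Nat10, Rrp12, Ltv1 and Tsr1, were not called in any comparison. Tsr1 and Utp14a, like the large subunit factor Noc2l, lie antisense to another gene over 34.2%, 18.9% and 21.5% of their transcript, so their counts are uncertain.

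**Figure D4:**
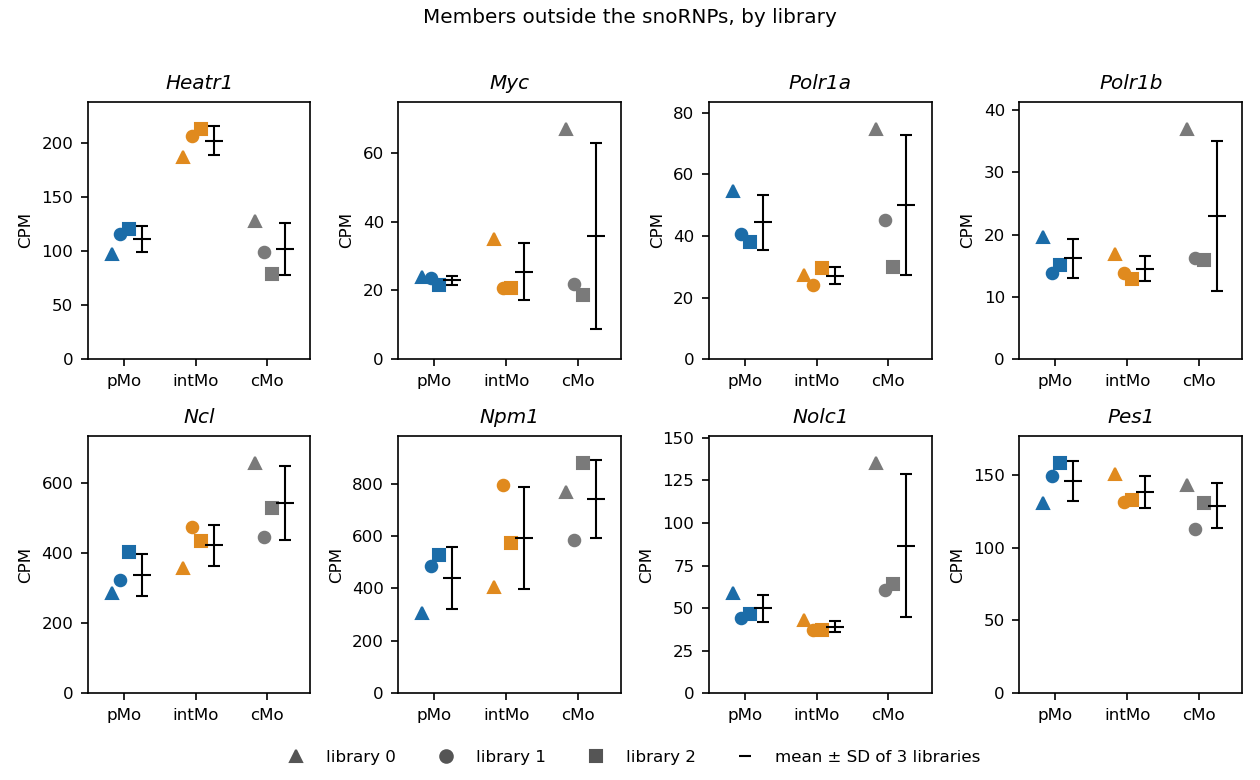
CPM (y axis, from 0) of Heatr1, Myc, Polr1a, Polr1b, Ncl, Npm1, Nolc1 and Pes1 in pMo, intMo and cMo, with a symbol for each library and a black bar for the mean ± SD of 3 libraries. The intMo points of Heatr1 lie above those of pMo and cMo, and cMo library 0 stands above the other cMo libraries for Myc, Polr1a, Polr1b and Nolc1.

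Of the 10 large subunit factors, 0 were called in pMo (1 with an unadjusted p under 0.05, 0 by DESeq2), and Rrs1 and Ftsj3 were lower in intMo. Rrs1, which helps bring 5S rRNA into the large subunit, had 26.8, 21.4 and 18.4 CPM in pMo, 18.3, 16.6 and 16.5 CPM in intMo, and 52.1, 24.6 and 25.3 CPM in cMo. The intMo libraries were the lowest, close to pMo. Its change in intMo was -0.99 ± 0.29 (adjusted p = 0.0342, edgeR), and -0.55 without cMo library 0 (adjusted p = 0.0585, edgeR). Ftsj3, an rRNA methyltransferase, had an intMo change of -0.67 ± 0.20 (adjusted p = 0.0355, edgeR), and -0.42 without cMo library 0 (adjusted p = 0.0785, edgeR). Leaving out pMo library 1, any intMo library or cMo library 0 ended either call, as did pMo library 2 for Ftsj3.

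The PeBoW complex of Pes1, Bop1 and Wdr12 matures the large subunit rRNA. Pes1 had 130.7, 149.0 and 157.7 CPM in pMo, 150.7, 131.0 and 132.7 CPM in intMo, and 143.1, 112.5 and 130.4 CPM in cMo. The 3 subsets overlapped throughout, with changes of 0.18 ± 0.13 in pMo (adjusted p = 0.331, edgeR) and 0.10 ± 0.13 in intMo (adjusted p = 0.615, edgeR), the second 0.18 without cMo library 0. Bop1 averaged 48.7 ± 6.49 CPM in pMo, 39.8 ± 3.28 CPM in intMo and 61.5 ± 23.5 CPM in cMo (SD, n = 3 each). Nop2, an rRNA cytosine methyltransferase, averaged 38.6 ± 4.98 CPM in pMo, 30.7 ± 4.51 CPM in intMo and 49.6 ± 21.1 CPM in cMo (SD, n = 3 each). Neither was called, and the spread among the cMo libraries exceeded that of the other subsets. In cMo libraries 0, 1 and 2, Bop1 had 88.53, 49.78 and 46.04 CPM and Nop2 had 73.85, 35.86 and 39.13 CPM. Wdr12, Nop16, Rrp1, Noc2l and Noc3l were not called either.

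Between pMo and intMo, 1 member was lower and 0 were higher (edgeR). At an unadjusted p under 0.05, 3 were higher and 1 lower, and DESeq2 called 0 higher and 1 lower, with 5.6% and 4.7% of all genes. The 1 gene is 2.13% of the members, against 1.69% of all tested genes that were lower and 3.29% that were higher. With libraries 1 and 2 only, 1 member was lower and 2 were higher (backgrounds 9.67% and 7.43%). It was Heatr1, at -0.86 ± 0.18 in pMo against intMo (adjusted p = 0.0255, edgeR), a call lost without any pMo library or without intMo library 1 or 2, where the adjusted p reached at most 0.103 in edgeR. In the fit with library number as a replicate block, its adjusted p was 0.0437 in edgeR. For the snoRNP genes, the changes ran from -0.16 ± 0.24 for Dkc1 to 0.30 ± 0.33 for Gar1 and were not called, which does not show that the 2 subsets were alike. The 12 members whose pMo libraries were all above the intMo libraries, were 25.5% of the set, with 14.8% of tested genes in that order. Those in the opposite order, Heatr1 and Fbl, were 2, with 12.9% of tested genes.

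Per kilobase of coding sequence, Npm1 had the highest mean level of the members, at 503 CPM per kb in pMo, 675 in intMo and 848 in cMo. Ncl followed, at 159, 199 and 257 CPM per kb in pMo, intMo and cMo, and then Nop10, Nhp2 and Rrp1. By transcript length Npm1 again ranked 1 and Ncl ranked 5. Utp20 ranked last of the 47 by coding length, at 3.88, 3.34 and 5.84 CPM per kb in pMo, intMo and cMo. Within the H/ACA particle, levels per coding length differed between proteins: Nop10 had 138 CPM per kb in pMo, 135 in intMo and 209 in cMo, against 11.6, 13 and 33.6 for Dkc1. The coding sequence of Nop10 is 192 bases, and per kilobase of transcript the gap was smaller, at 27.8 CPM for Nop10 and 10.6 CPM for Dkc1 over all 9 libraries.

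Further genes of the pathway were taken from lists chosen by role. Of 12 further snoRNP assembly factors, 5 were lower in pMo and 5 in intMo than in cMo, 0 were higher, and the median log2 changes were -0.58 and -0.47. At an unadjusted p under 0.05 and by DESeq2, 0 were higher. The counts were 4 in pMo and 2 in intMo without cMo library 0. Ruvbl2, a helicase of the R2TP assembly complex, had 33.0, 29.3 and 34.0 CPM in pMo, 36.2, 42.1 and 39.3 CPM in intMo, and 120.0, 59.3 and 63.7 CPM in cMo. Every cMo library was the higher, and the changes were -1.34 ± 0.25 in pMo (adjusted p = 0.00384, edgeR) and -1.05 ± 0.25 in intMo (adjusted p = 0.0159, edgeR), -0.65 in intMo without cMo library 0, and the intMo call was lost without intMo library 2. Pih1d1, another R2TP subunit, changed by log2 -0.87 ± 0.13 in pMo (adjusted p = 0.00107, edgeR) and -0.43 ± 0.12 in intMo (adjusted p = 0.0342, edgeR), the second lost without any 1 of 6 of the libraries. Of 14 RNA exosome and trimming genes, 5 were lower in pMo and 6 in intMo (backgrounds 15.9% and 10.4%), and 0 were higher. Without cMo library 0, 4 were lower in each (backgrounds 12.8% and 6.63%). Exosc8, an exosome subunit, changed by -1.21 ± 0.23 in pMo (adjusted p = 0.0041, edgeR) and -0.88 ± 0.23 in intMo (adjusted p = 0.0233, edgeR). The second call was lost without intMo library 0 or 2 or cMo library 0 or 2. Xrn2, the most abundant of that list, changed by 0.13 ± 0.19 in pMo and 0.19 ± 0.19 in intMo and was not called.

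Of 37 other small subunit factors, 2 were lower in pMo and 4 in intMo (backgrounds 15.9% and 10.4%), with medians of -0.19 and -0.24. Without cMo library 0, 2 were lower in each (backgrounds 12.8% and 6.63%). Emg1, an rRNA methyltransferase, had 59.7, 61.6 and 60.8 CPM in pMo, 53.4, 66.4 and 58.5 CPM in intMo, and 101.0, 76.6 and 99.2 CPM in cMo. It changed by log2 -0.60 ± 0.14 in pMo (adjusted p = 0.0101, edgeR) and -0.63 ± 0.14 in intMo (adjusted p = 0.0115, edgeR). Bysl, a late processing factor, changed by -0.73 ± 0.19 in pMo (adjusted p = 0.0155, edgeR), a call lost without pMo library 1 or 2, and by -0.88 ± 0.19 in intMo (adjusted p = 0.0098, edgeR). Of 47 other large subunit factors, 7 were lower and 2 higher in pMo, and 9 were lower and 1 higher in intMo, with medians of -0.21 and -0.41. The numbers lower were 3 in pMo and 5 in intMo without cMo library 0. Npm3, a chaperone of the nucleophosmin family, changed by log2 -1.12 ± 0.23 in pMo (adjusted p = 0.00587, edgeR) and -1.0 ± 0.23 in intMo (adjusted p = 0.0138, edgeR), -0.67 in intMo without cMo library 0. Gnl2, a nucleolar GTPase, had 61.4, 68.6 and 75.8 CPM in pMo and 52.0, 36.4 and 49.2 CPM in cMo, a change of 0.58 ± 0.16 (adjusted p = 0.0218, edgeR), lost without pMo library 1 or 2 or cMo library 1. Of 11 other RNA polymerase I genes, 0 were called in pMo (0 at an unadjusted p under 0.05 and 0 by DESeq2). In intMo 1 was lower (background 10.4%), and 0 were without cMo library 0 (background 6.63%).

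Of the 10 tested genes of the MYC network, 1 was lower and 1 higher in pMo, and 2 were lower and 1 higher in intMo, where 0 were lower without cMo library 0. Mxd3, a MYC antagonist known from dividing cells, had 2.1, 3.68 and 3.1 CPM in pMo, 3.7, 13.1 and 12.1 CPM in intMo, and 28.6, 19.8 and 23.7 CPM in cMo. All pMo libraries were far below all cMo libraries, a change of -3.02 ± 0.45 (adjusted p = 0.00123, edgeR). Mxi1, also a MYC antagonist, changed by 0.82 ± 0.21 in pMo (adjusted p = 0.0147, edgeR), lost without pMo library 1. Max, the partner of MYC, was not called. The 1 gene higher in intMo was Mycl, of the MYC family, by 2.0 ± 0.46 (adjusted p = 0.0139, edgeR). It had 18.2, 11.2 and 10.7 CPM in intMo and 2.59, 3.06 and 4.36 CPM in cMo. Of 16 metabolic genes known as MYC targets, 8 were lower and 1 higher in pMo, and 9 were lower and 0 higher in intMo, with the same backgrounds. At an unadjusted p under 0.05, 11 were lower and 0 higher in intMo. DESeq2 called 11 lower and 0 higher there (backgrounds 14.4% and 16.2%). Without cMo library 0, 7 were lower and 1 higher in pMo (backgrounds 12.8% and 14.7%). In intMo 6 were then lower and 1 higher (backgrounds 6.63% and 11.7%). Shmt2, the mitochondrial serine hydroxymethyltransferase, had 36.3, 26.5 and 22.6 CPM in pMo, 37.5, 43.8 and 48.4 CPM in intMo, and 268.0, 94.2 and 84.0 CPM in cMo, changes of -2.38 ± 0.43 in pMo (adjusted p = 0.00323, edgeR) and -1.78 ± 0.42 in intMo (adjusted p = 0.0157, edgeR). The intMo value was -1.04 without cMo library 0, and the intMo call was lost without intMo library 0. Ccnd2, cyclin D2, was the 1 gene higher in pMo, by 1.58 ± 0.47 (adjusted p = 0.0287, edgeR), a value of 2.39 without cMo library 0 and lost without pMo library 0, cMo library 1 or cMo library 2.

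Other gene lists also differed between the libraries. The 24 cell cycle genes were all lower in pMo than in cMo and 10 were lower in intMo, 24 in both with libraries 1 and 2 only. They summed to 694.9, 1085 and 1139 CPM in pMo, 723.1, 2889 and 2715 CPM in intMo, and 5992, 4605 and 5011 CPM in cMo. Pcna, the clamp of DNA polymerase, had 127.0, 118.0 and 122.0 CPM in pMo, 118.0, 190.0 and 157.0 CPM in intMo, and 363.0, 255.0 and 333.0 CPM in cMo. Of the 14 granulocyte and progenitor genes, 7 were lower in pMo and 5 in intMo, and without cMo library 0 the counts were 7 and 2. With libraries 1 and 2 only, 7 were lower and 5 higher in pMo, and 7 were lower and 6 higher in intMo. The list summed to 432.4, 1281 and 1322 CPM in pMo, 395.9, 1850 and 1845 CPM in intMo, and 8956, 1626 and 1714 CPM in cMo. Ctsg, a granule protease of neutrophils and their precursors, had 4.48, 4.83 and 5.03 CPM in pMo, 4.72, 29.2 and 26.9 CPM in intMo, and 448.0, 138.0 and 168.0 CPM in cMo. Of 13 tested stromal genes, 11 were higher in both pMo and intMo, and the 14 listed summed to 544.1, 352.4 and 290.5 CPM in pMo, 762.2, 238.5 and 298.7 CPM in intMo, and 33.36, 24.22 and 22.46 CPM in cMo. The part of the cell cycle, of granulocyte and progenitor cells and of stromal cells in the ribosome biogenesis levels was not tested.

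**Figure D5:**
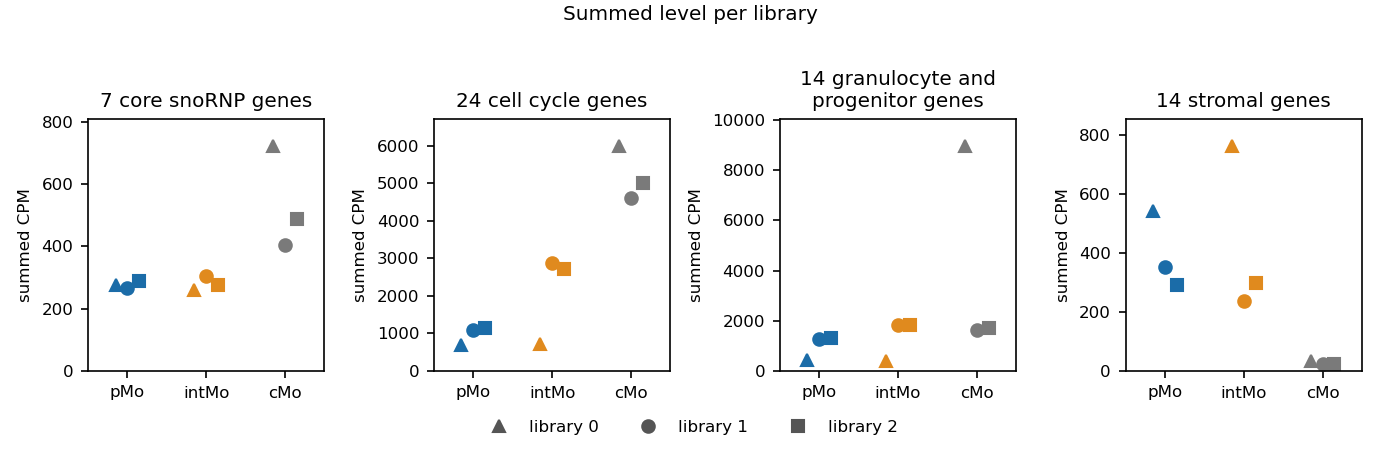
Summed CPM (y axis, from 0) of the 7 core snoRNP genes, 24 cell cycle genes, 14 granulocyte and progenitor genes and 14 stromal genes in pMo, intMo and cMo, with a symbol for each library. The snoRNP and cell cycle sums are highest in the 3 cMo libraries, the stromal sum is lowest there, and cMo library 0 stands apart in the granulocyte and progenitor sum.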

How the data were processed

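RNA was sequenced from 9 libraries, 3 each of pMo, intMo and cMo. Extraction used RNAzol and library preparation the stranded NEBNext Ultra II mRNA kit, per the labels' protocols. The authors' deposited values are estimated counts by gene, from kallisto 0.46.1 on mm10 per the submitters' processing notes. The annotation, the step from transcripts to genes and the strand setting were not given in the sources used here. Counts were rounded. Symbols, coordinates and lengths (longest principal transcript) came from GENCODE M21 of GRCm38, and 46005 of 46517 IDs matched a symbol. Genes were kept by filterByExpr, scaled by TMM and tested across all 14059 with edgeR 4.0.16 (R 4.3.3, quasi-likelihood, robust) in 1 fit of the 9 libraries with subset as the term. Calls needed an adjusted p (Benjamini-Hochberg, two-sided) under 0.05. CPM is the count scaled by the TMM-adjusted library size. The test was checked on simulated counts with planted changes, drawn independently for each library. In them no library stood apart and none were paired, so the check does not cover those features. Without molecular identifiers, reads are not independent molecules, so counting error is only part of the error.

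The members and lists were chosen with earlier results of these data known. All members were accounted for. Core members and, per role and comparison, the called member with the largest change were given in every library. The exceptions were Nob1, Bop1 and Nop2, given by mean and SD. From other lists the most abundant and the most changed called genes could be named. Alternatives were other scalings and filters, DESeq2 1.42.0, 2 subsets alone, a replicate block, each library left out, libraries 1 and 2 alone, and unrounded counts. Same-numbered libraries of pMo and intMo deviated together over genes (r = 0.588, 0.3 and 0.274), so by the rule used (every pair over 0.1) the numbers were taken to pair these 2 subsets, and not pMo or intMo with cMo. Libraries 1 and 2 also correlated across numbers (pMo 1 with intMo 2 at 0.279, pMo 2 with intMo 1 at 0.403), so the numbers set library 0 apart but do not tell 1 from 2. Protein sequences were not used here.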

Additional observations from a re-analysis of the deposited data

How the results depend on the processing

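Of 864 alternative values for 48 single-gene results, 755 kept their direction and their side of the threshold, 63 fell short of it, 34 passed it and 12 changed sign. The 12 sign changes were of results with no call. Without cMo library 0, 7 of these genes in pMo against cMo (15 of all 47 members) and Myc in intMo against cMo (2 of all 47) turned positive, and without cMo library 2 Heatr1 turned negative in pMo against cMo. With libraries 1 and 2 only, pMo against cMo was 0.15 for Myc and 0.07 for Polr1a, and intMo against cMo was 0.03 for Myc. The cause was not tested. Over all single-library omissions, pMo against cMo ranged from -0.51 to 0.02 for Bop1, -0.24 to 0.01 for Ddx21, -0.03 to 0.31 for Heatr1, -0.96 to 0.17 for Myc, -0.55 to 0.04 for Nop2, -0.43 to 0.24 for Polr1a, -0.72 to 0.01 for Polr1b and -0.69 to 0.10 for Rrp9, and intMo against cMo from -0.81 to 0.32 for Myc. Leaving out each library in turn, the members lower than in cMo numbered 5 to 13 in pMo (8 with all libraries) and 4 to 17 in intMo (12), and between pMo and intMo 0 to 1 were lower and 0 to 1 higher. With libraries 1 and 2 only, 2 members were higher in pMo than in cMo (Heatr1 and Pes1) and 2 higher in pMo than in intMo (Utp4 and Nop16). Fitting only the 2 subsets compared, which leaves fewer samples, gave 5 members lower in intMo than in cMo. Over all genes, 701 were called between pMo and intMo, against 1417 by DESeq2, 2424 with libraries 1 and 2 only and 221 to 1107 leaving out each library, and 3433 between intMo and cMo, against 2213 with the 2 subsets alone. Same-numbered libraries correlated at 0.179, -0.0156 and 0.23 between pMo and cMo and at 0.0657, -0.143 and -0.0694 between intMo and cMo. By the rule used, the numbers were not taken to pair these subsets. Whether same-numbered libraries share a batch was not tested. With the replicate block, 11 members were lower in pMo and 16 in intMo than in cMo; between pMo and intMo the block changed no member's call (1 either way). A change that misses the threshold with 3 libraries a subset is not shown to be absent.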
